A study of Mus musculus with 60 samples.

Results

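The MCM2-2A effect under POLE4 depletion was measured at 96 h in 6 of the 60 RNA libraries of the series: 3 libraries of dPOLE4 MCM2-2A cells against 3 of dPOLE4 cells, chosen by genotype, treatment and time. Both groups were E14JU mouse embryonic stem cells (mESCs) of a 129/Ola background, grown in serum and LIF, without retinoic acid (RA). All cells carried POLE4 fused to a degron tag, and all were given 1 µM dTAG, the compound that sends the tagged protein to degradation, for 96 h. The dPOLE4 MCM2-2A cells also carried the MCM2-2A substitutions. Each genotype was represented by a single line (for MCM2-2A, the line labelled clone 2), so that MCM2-2A and the history of that line cannot be told apart. Total counts lay between 15647026 and 21068936 in dPOLE4 and between 11517180 and 16879010 in dPOLE4 MCM2-2A. The Ctrl MCM2-2A and Ctrl libraries of 96 h (DMSO in place of dTAG, 3 each) and the same dTAG contrast at 24 h (3 libraries each) were used for comparison.

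MCM2 is a subunit of the replicative helicase and binds parental histones H3 and H4, which it passes to the lagging strand behind the fork. POLE4 is a small subunit of DNA polymerase epsilon and, with POLE3, passes parental histones to the leading strand. MCM2-2A carries substitutions in the histone-binding domain of MCM2, so that both routes are impaired in dPOLE4 MCM2-2A cells.

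Of 17484 features that passed the filter on low counts (16640 genes and 844 repeat subfamilies), 2863 (16.4%) were differentially expressed (DE) in dPOLE4 MCM2-2A, with 1696 higher (9.7%) and 1167 lower (6.67%). DE means an adjusted p below 0.01 in edgeR's quasi-likelihood test and a log2 fold change above 0.58 in size. That test did not pair the libraries by replicate number. Chromosomes 11, 14 and 15 held 910 of these features, 35% of the 2599 genes tested there. Outside them, 1930 of 14041 genes were DE (13.7%), of which 1272 were higher (9.06%) and 658 lower (4.69%). In all 1930, the 3 libraries of a group did not overlap those of the other, which held for 48.2% of all features. The DE call rests on the same libraries and favours such genes, so this is not separate support for the calls. Without chromosomes 1 and Y as well, 1742 of 13055 genes were DE (13.3%), 1119 of them higher (8.57%) and 623 lower (4.77%). The median log2 fold change over all features was 0.0035 and the median standard error 0.138. The shares of all features, 9.7% higher and 6.67% lower, are the background for the list counts below. A count near them is not a result about the list.

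The edited gene was lower at the RNA level. Mcm2 (ENSMUSG00000002870, chr6:88883474-88898780) was at 531, 537 and 526 CPM (normalised read counts relative to library size) in dPOLE4 and at 289, 283 and 306 in dPOLE4 MCM2-2A. It fell by 0.85 on the log2 scale (SE 0.0609, adjusted p = 3.94e-06), with no overlap between the groups. Pole4 RNA was at 53.3, 43.8 and 48.6 CPM against 27.6, 27 and 26.9 (log2 fold change -0.83, SE 0.0923, adjusted p = 5.39e-05). The tag acts on the protein, so these RNA levels do not check the depletion, and the counts per gene do not show the MCM2 substitutions. Of the other replisome genes tested, Gins1 (-0.61) and Pold2 of chromosome 11 (-0.68) fell and Wdhd1 of chromosome 14, which links the helicase to polymerase alpha, rose (1.18), so that 1 of 35 replisome genes was higher and 4 were lower (median 0.021).

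The cells kept the RNA of mESCs. None of the 10 pluripotency markers was DE, and their summed level was 5208 to 5401 CPM in dPOLE4 and 4874 to 5238 CPM in dPOLE4 MCM2-2A. Pou5f1, the central pluripotency factor, was at 787 ± 25.9 and 798 ± 59 CPM (SD, n = 3 each). Among 11 core pluripotency genes, Tdgf1, the co-receptor of Nodal, was the single DE gene (277 ± 18.2 against 536 ± 23.8 CPM, log2 fold change 0.96). Of 16 naive pluripotency genes, 3 fell and none rose (median -0.25). Dppa3, a maternal factor that protects against loss of imprints, fell from 28.9, 27.2 and 29.7 CPM to 4.92, 6.67 and 5.08 CPM (log2 fold change -2.35, SE 0.135, adjusted p = 1.54e-06). Tet2, which oxidises methylated cytosine, fell by 0.81 and Pecam1, a surface adhesion molecule encoded on chromosome 11, by 0.93 on the log2 scale.

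Genes of chromosomes 11, 14 and 15 shifted as blocks rather than singly. On chromosome 11, 81.1% of 1384 tested genes had a value below 0, with a median log2 fold change of -0.51, and all 27 runs of 50 neighbouring tested genes had medians between -0.75 and -0.36. On chromosome 15, 89.4% of 663 genes had a value above 0 (median 0.46), and its 13 runs lay between 0.26 and 0.74. On chromosome 14 the shift was limited to 5 neighbouring runs, whose genes start between positions 45484645 and 73237895 (GRCm38). Their medians were 0.48 to 1.03, while the other 6 runs lay between -0.19 and 0.024. In that stretch 168 of 250 genes were DE and higher, none was DE and lower, and the median was 0.90.

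The shift was present in every library. Relative to the mean of the dPOLE4 and Ctrl libraries, the median gene of chromosome 11 was at -0.51, -0.48 and -0.44 (log2) in the 3 dPOLE4 MCM2-2A libraries and at -0.01, 0.0093 and 0.029 in the 3 dPOLE4 libraries. For chromosome 15 the values were 0.39, 0.44 and 0.46 against -0.011, 0.0098 and 0.018. The Ctrl MCM2-2A libraries, which had no dTAG, were at -0.49, -0.46 and -0.47 on chromosome 11 and at 0.44, 0.50 and 0.48 on chromosome 15. Copy number was not measured, and its part in these shifts was not tested.

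**Figure D1:**
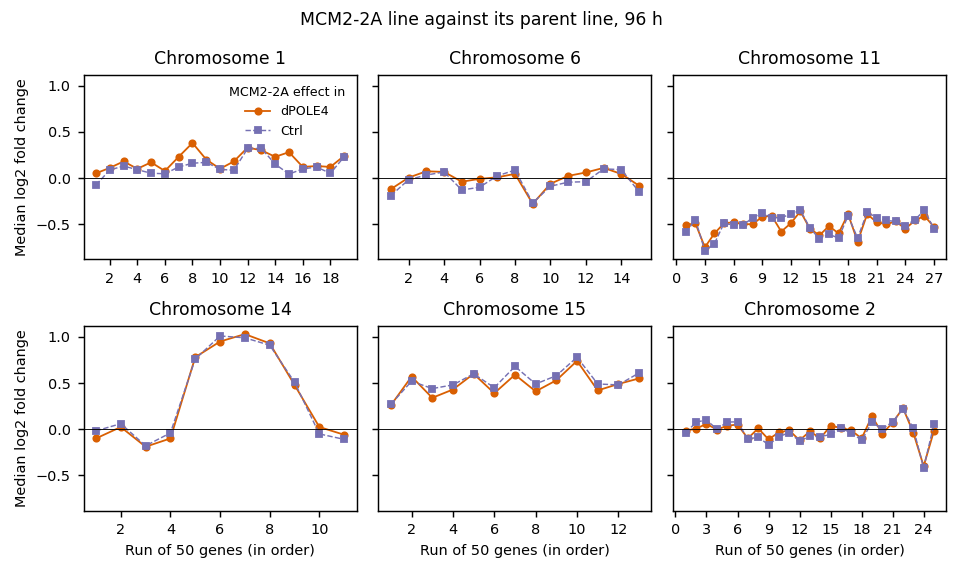
Median log2 fold change of runs of 50 tested genes along 6 chromosomes at 96 h (x axis, order of the run, y axis, log2). The MCM2-2A line is set against the line without MCM2-2A, under dTAG (circles, dPOLE4) and under DMSO (squares, Ctrl). The panel title calls the latter the parent line, but the study tagged POLE4 in wild-type and in MCM2-2A cells, so these are separately tagged lines. Chromosome 11 lay between -0.75 and -0.36 and chromosome 15 between 0.26 and 0.74 along their whole length in dPOLE4, chromosome 14 rose in 5 runs, and chromosome 2 is shown for comparison.

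Chromosome 1 had a smaller shift of the same kind. Its median log2 fold change was 0.18, with 69.9% of 977 genes higher and all 19 runs above 0 (0.051 to 0.38), and 153 of its genes were DE higher against 27 lower. The medians of the other 16 chromosomes, Y left aside, lay between -0.068 and 0.027. On chromosome 6, the run that holds Mcm2 (genes starting between 87887814 and 92370908) had a median of -0.28 and 22 DE genes of 50, and the other 14 runs of that chromosome lay between -0.12 and 0.11. Klf15 and Trh, described below, lie in that run. Among the 254 runs of chromosomes other than 1, 11, 14 and 15, medians ranged from -0.45 on chromosome 13 to 0.33 on chromosome 18. That run of chromosome 13 holds the histone gene Hist1h1t. The run before it, with a median of -0.43, holds Hist1h2bn, and both genes are described below.

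Of 9 genes of chromosome Y that were tested, 8 fell. Ddx3y, an RNA helicase of the male-specific region, was at 92.9, 69.5 and 67.9 CPM in dPOLE4 and at 4.42, 4.21 and 3.89 CPM in dPOLE4 MCM2-2A. Uty, a histone demethylase homologue, fell by 4.66, Uba1y, a ubiquitin-activating enzyme, by 3.82 and Eif2s3y, a translation initiation factor, by 3.2 on the log2 scale. The summed level of 7 single-copy genes of the chromosome (these 4 with Zfy1, Kdm5d and Usp9y, which were named after their values were seen) was 234, 193 and 186 CPM in dPOLE4 and 16.5, 14 and 12.4 CPM in dPOLE4 MCM2-2A. It was 240, 218 and 217 CPM in Ctrl and 18.2, 14.2 and 14.3 CPM in Ctrl MCM2-2A. The low level was therefore present without dTAG too. Over all 9 tested genes the sum was 639, 771 and 762 CPM in dPOLE4 and 301, 396 and 372 CPM in dPOLE4 MCM2-2A, whose mean was 49.2% of that in dPOLE4.

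Outside chromosomes 11, 14 and 15, Mmp9, a secreted gelatinase (chr2:164940780-164955850), was at 1.15, 1.11 and 1.13 CPM in dPOLE4 and at 7.95, 12.2 and 9.31 CPM in dPOLE4 MCM2-2A, a rise of 3.13 on the log2 scale (SE 0.217, adjusted p = 3.56e-06). Thy1, a surface glycoprotein of neurons, T cells and fibroblasts (chr9:44043384-44048579), rose from 3.06, 3.89 and 4.73 CPM to 28.1, 26.6 and 28.7 CPM (log2 fold change 2.83, SE 0.147, adjusted p = 9.27e-07). Trh, the precursor of thyrotropin-releasing hormone, rose from 38.8, 63 and 61.1 CPM to 234, 291 and 263 CPM (log2 fold change 2.28). Its groups lay far apart, and it was the most abundant of these genes.

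Trf, the iron carrier transferrin, rose by 2.42 (5.06 ± 0.919 against 27.2 ± 4 CPM) and Cdx1, a caudal homeobox factor, by 2.86 (0.737 ± 0.136 against 5.31 ± 1.69 CPM; SD, n = 3 each). Atf3, a stress-induced transcription factor, was at 2.3, 1.63 and 0.967 CPM in dPOLE4 and at 10.9, 6.85 and 6.94 CPM in dPOLE4 MCM2-2A (log2 fold change 2.36, SE 0.29, adjusted p = 9.92e-05). Rhobtb1, an atypical GTPase, rose by 2.30, Eln, the elastic-fibre protein elastin, by 2.26 and Amn, an endocytic co-receptor of visceral endoderm, by 2.27.

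Large falls outside these chromosomes, after the Y-linked genes, included Nxf3, an X-linked RNA export factor, which went from 13.6, 15.6 and 16.7 CPM to 2.21, 1.81 and 1.78 CPM (log2 fold change -2.97, SE 0.163, adjusted p = 1.32e-06). Igsf23 fell by 2.52 (14 ± 0.0625 against 2.38 ± 0.584 CPM). Aass, the first enzyme of lysine breakdown, fell by 2.38 and Klf15, a metabolic Krüppel-like factor on chromosome 6, by 2.38 (19.2 ± 3.33 against 3.75 ± 1.33 CPM). Groups without overlap were a condition for naming these genes.

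**Figure D2:**
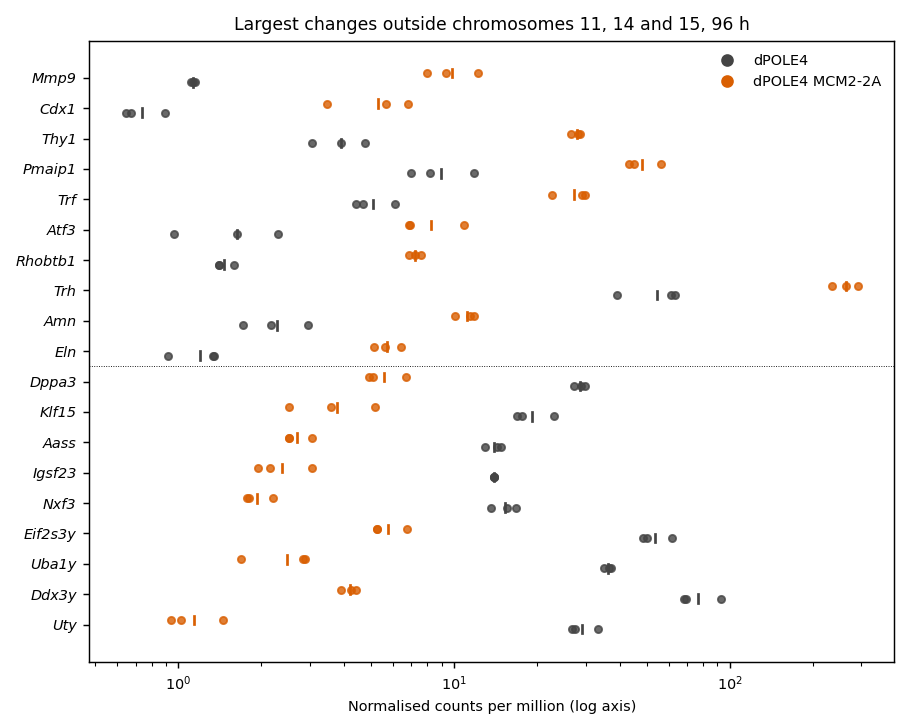
Normalised CPM (log axis) of the 10 genes with the largest rise and of 9 of the 10 with the largest fall outside chromosomes 11, 14 and 15 at 96 h. Each dot is a library (3 dPOLE4, dark; 3 dPOLE4 MCM2-2A, orange), the vertical mark is the group mean, and the groups do not overlap for any of the 19 genes, from Mmp9 (log2 fold change 3.13) to Uty (-4.66).

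On chromosomes 11, 14 and 15, up to 3 genes per direction were named by size of change, so both directions appear by choice. Among all DE genes, 45 were higher and 464 lower on chromosome 11. On chromosome 14 the counts were 184 and 21, and on chromosome 15 they were 188 and 8. Cavin1, a caveolar coat protein of chromosome 11, rose by 1.23 (37.4 ± 5.78 against 86.9 ± 2.1 CPM), Slc13a5, a citrate carrier, by 1.26 and Sept4, a septin, by 1.53. Ddc, the dopa decarboxylase, fell there by 1.87, Itgb3, an integrin subunit, by 1.85 and Fbxo47 by 1.81. On chromosome 15, Acvrl1, a receptor of the BMP family, rose from 0.39 ± 0.12 to 5.25 ± 0.866 CPM (3.70), whereas Peg13, Dpys and Aard fell by 1.37, 1.27 and 1.20. On chromosome 14, Ltb4r2, a leukotriene receptor, rose by 2.80 and Clu, the chaperone clusterin, by 2.74, whereas Sox21 fell by 1.64, Wdfy4 by 1.47 and Zic5 by 1.08. These 3 start outside the shifted stretch of chromosome 14, and Ltb4r2 and Clu inside it.

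Targets of p53, the stress-activated transcription factor, were higher. Of 25 targets tested, 10 rose, none fell and 15 were not DE, with a median log2 fold change of 0.57. Pmaip1, which encodes the pro-apoptotic protein NOXA, rose from 11.8, 8.17 and 6.98 CPM to 56.2, 42.9 and 44.8 CPM (log2 fold change 2.44, SE 0.179, adjusted p = 4.47e-06). Perp, an apoptosis effector of the membrane, rose by 1.66 (20.2 ± 5.14 against 63.4 ± 5.32 CPM), Btg2, an antiproliferative factor, by 1.29 (42.2 ± 3.3 against 103 ± 7.71 CPM) and Phlda3, an inhibitor of AKT, by 1.18 (35 ± 4.36 against 78.8 ± 4.88 CPM). Of the 10, Gtse1 lies on chromosome 15 and the other 9 among the 21 targets outside chromosomes 11, 14 and 15. These 9 include genes of chromosome 1, which had a smaller shift (median 0.18). Btg2 and Phlda3 lie there, in runs with medians of 0.33 and 0.30, while Pmaip1 and Perp lie on chromosomes 18 and 10. How far the shift of chromosome 1 adds to the rise of Btg2 and Phlda3 was not tested. Of the 25 targets, 22 had a log2 fold change above 0.

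Replication-dependent histone genes were lower. These genes supply the histones of S phase and mostly give transcripts without a poly(A) tail, which the depletion of ribosomal RNA used for these libraries retains. Of 68 tested, 18 fell, none rose and 50 were not DE (median log2 fold change -0.52), and 64 of the 68 had a value below 0. Outside chromosomes 11, 14 and 15, 17 of 66 fell. With the replicate block, 23 of all 68 fell. Hist1h1t fell from 2.74, 4.04 and 5.26 CPM to 1.14, 0.995 and 1.35 CPM (log2 fold change -1.80), Hist1h2bn from 22.9, 25.6 and 24.3 CPM to 13.7, 11.5 and 14 CPM (-0.89), and Hist2h2aa2, an H2A gene of the smaller cluster, by 1.10. The genes are near-identical copies of each other, so the split of reads between single copies is uncertain.

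Promoter sequences of 2 of these genes are shown because most genes of the list with a window held CCAAT, which the choice of genes did not use. Hist3h2a, on chromosome 11, fell by 0.78 on the log2 scale. The windows are the 250 bases before the start annotated by RefSeq on GRCm38.p6, 5′ to 3′, for Hist1h2bn at chr13:21753826-21754075 (plus strand) and Hist3h2a at chr11:58954435-58954684 (plus strand). Capitals mark CCAAT and TATAAA on either strand, and the window of Hist3h2a held no TATAAA.
Hist1h2bn: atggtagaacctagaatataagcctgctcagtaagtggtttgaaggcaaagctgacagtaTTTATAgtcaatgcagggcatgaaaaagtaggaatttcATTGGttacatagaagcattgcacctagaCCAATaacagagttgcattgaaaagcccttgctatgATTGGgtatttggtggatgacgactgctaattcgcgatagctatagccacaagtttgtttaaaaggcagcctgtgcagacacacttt
Hist3h2a: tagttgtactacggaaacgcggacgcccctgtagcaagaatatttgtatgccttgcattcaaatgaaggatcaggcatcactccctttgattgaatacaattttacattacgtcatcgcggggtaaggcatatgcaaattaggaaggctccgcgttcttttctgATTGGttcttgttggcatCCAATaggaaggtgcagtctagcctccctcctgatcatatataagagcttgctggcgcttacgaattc
Of 60 listed histone genes with a window, 49 (81.7%) held CCAAT and 29 (48.3%) held TATAAA on either strand. Among the 11092 of 14160 tested protein-coding genes that matched a window, the shares were 37% and 6.46%, and among all 27025 windows they were 34.5% and 13%.

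Genes of the germline, which are silent in most somatic cells, were more often higher than lower. Of 30 tested, 12 rose, 2 fell and 16 were not DE (median 0.51), and outside chromosomes 11, 14 and 15 the counts were 9 and 2 of 25 (median 0.28). Taf7l, a germ-cell subunit of the transcription machinery, rose from 4.85, 3.61 and 3.6 CPM to 21.1, 15.3 and 12.6 CPM (log2 fold change 2.05, SE 0.208, adjusted p = 2.95e-05). The synaptonemal complex genes Sycp3 and Sycp1 rose by 1.99 (4.44 ± 1.45 against 17.3 ± 8.24 CPM) and 1.72 (4.53 ± 1.83 against 14.5 ± 6.75 CPM), and Tdrd1, of the piRNA pathway, by 1.94. In both Sycp genes, dPOLE4 MCM2-2A replicate 1 was the highest library, at 26.8 and 22.3 CPM. The Sycp1 call was lost when dPOLE4 replicate 2 or 3 was left out (adjusted p = 0.0119 and 0.0107).

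The promoters of these 4 germline genes are shown because all of them hold an E-box, the CACGTG motif, which reads the same on both strands. The windows lie at chr3:102936101-102936350 (minus strand), chr10:88459337-88459586 (plus strand), chrX:134476491-134476740 (minus strand) and chr19:56825959-56826208 (plus strand), and capitals mark CACGTG.
Sycp1: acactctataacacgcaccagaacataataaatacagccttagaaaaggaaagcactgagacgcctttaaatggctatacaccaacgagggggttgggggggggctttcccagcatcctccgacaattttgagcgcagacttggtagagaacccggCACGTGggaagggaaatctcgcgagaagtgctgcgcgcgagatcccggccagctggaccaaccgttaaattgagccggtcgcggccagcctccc
Sycp3: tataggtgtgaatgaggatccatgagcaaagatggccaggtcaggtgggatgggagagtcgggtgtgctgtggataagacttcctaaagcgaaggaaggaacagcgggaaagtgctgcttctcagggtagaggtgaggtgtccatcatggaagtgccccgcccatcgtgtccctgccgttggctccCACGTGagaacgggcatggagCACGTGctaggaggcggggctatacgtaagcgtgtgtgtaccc
Taf7l: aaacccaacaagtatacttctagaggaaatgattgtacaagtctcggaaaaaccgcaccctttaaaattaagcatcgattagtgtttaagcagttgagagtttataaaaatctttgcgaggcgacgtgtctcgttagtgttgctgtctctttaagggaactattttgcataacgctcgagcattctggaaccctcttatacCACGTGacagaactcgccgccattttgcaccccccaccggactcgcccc
Tdrd1: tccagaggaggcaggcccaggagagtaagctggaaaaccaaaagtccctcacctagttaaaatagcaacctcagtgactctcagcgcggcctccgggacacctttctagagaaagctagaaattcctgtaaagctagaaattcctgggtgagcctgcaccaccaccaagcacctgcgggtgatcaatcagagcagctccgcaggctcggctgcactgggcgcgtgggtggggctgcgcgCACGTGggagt
The motif was present in 13 of 27 germline genes with a window (48.1%), and in 9 of the 12 among these 27 that were DE in either direction. In the tested protein-coding genes with a window the share was 8.43%. Over all 27025 windows the share was 6.05%. Among genes outside chromosomes 11, 14 and 15, it was 6.97% for those DE higher, 7.46% for those DE lower and 8.63% for the rest.

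Transcripts of 2-cell-like cells, the rare mESCs that express genes of the 2-cell embryo, were higher. Of 18 features tested, 11 rose and none fell, the median log2 fold change was 0.93, and all 18 values lay between 0.62 and 2.21. With the replicate block 15 were DE. MERVL-int, the internal part of the retrovirus that marks this state, was at 1162, 1083 and 793 CPM in dPOLE4 and at 2053, 1796 and 1733 CPM in dPOLE4 MCM2-2A (log2 fold change 0.89, SE 0.126, adjusted p = 0.000268). Its LTR promoter MT2_Mm rose from 264, 235 and 176 CPM to 500, 384 and 386 CPM (0.92). Usp17le, a deubiquitinase gene, rose by 1.79 (11 ± 3.36 against 37.6 ± 3.86 CPM), its neighbours Usp17ld and Usp17lc by 1.93 and 1.52, and Tdpoz4 by 2.21.

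The Zscan4 genes, which act in telomere maintenance, varied more between libraries. Zscan4c was at 28.2, 17.5 and 14 CPM in dPOLE4 and at 47.9, 32.1 and 32.7 CPM in dPOLE4 MCM2-2A (log2 fold change 0.94, SE 0.232, adjusted p = 0.00845), and this call was lost with DESeq2 (adjusted p = 0.0305) and without dPOLE4 replicate 2 or 3 or dPOLE4 MCM2-2A replicate 1 or 3 (adjusted p of 0.017 to 0.0392). The calls of Zscan4e (0.85) and Zscan4f (0.87) were lost in the same way without 3 and 5 of the 6 libraries. Duxf3, the transcription factor that starts this programme, missed the threshold (log2 fold change 1.22, adjusted p = 0.0101) and passed it with the block (adjusted p = 0.0026) and with DESeq2 (adjusted p = 0.00653). Replicate 1 was the highest library of each group for MERVL-int and Zscan4c. Zscan4, Usp17l and Tdpoz genes are families of near-identical copies, so values of single copies are uncertain. The Zscan4 genes, Duxf3, MERVL-int and MT2_Mm were named after their values were seen. The promoter of Zscan4c, at chr7:11005495-11005744 (plus strand), is shown with CCAAT and TATAAA in capitals because promoters of this list held few CpG dinucleotides.
Zscan4c: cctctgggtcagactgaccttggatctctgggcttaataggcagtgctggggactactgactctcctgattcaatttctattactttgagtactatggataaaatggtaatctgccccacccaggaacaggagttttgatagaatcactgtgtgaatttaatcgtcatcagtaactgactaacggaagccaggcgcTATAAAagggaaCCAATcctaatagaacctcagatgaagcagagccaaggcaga
The 10 genes of the list with a window held a median of 2 CpG dinucleotides in 250 bases, against 15 in all tested protein-coding genes with a window. The 12 keratins with a window held a median of 3, so a low number was not particular to this list.

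Some genes of the Nodal and FGF pathways rose. Of 16 genes of the Nodal pathway, 9 rose and 1, the ligand Gdf3, fell (-0.62), with a median of 0.65. The ligand Nodal itself rose by 0.95. Lefty2, a secreted Nodal inhibitor and target, was at 25.6, 40 and 36.3 CPM in dPOLE4 and at 88.5, 97.3 and 104 CPM in dPOLE4 MCM2-2A (log2 fold change 1.51, SE 0.135, adjusted p = 1.4e-05). Lefty1 rose by 1.30 and the activin subunit Inhbb by 1.11. Lefty2, Lefty1 and Inhbb all lie on chromosome 1, whose genes had a median of 0.18. Of 21 genes of the FGF-ERK pathway, 7 rose, none fell and 14 were not DE (median 0.27). Among them were the ligand Fgf5 (0.443 ± 0.0935 against 1.41 ± 0.0736 CPM, 1.68), the early response gene Fos (1.64), and the feedback inhibitors Dusp6 (42.2 ± 5.56 against 88.7 ± 4.62 CPM, 1.08) and Spry4 (1.06). Without dPOLE4 replicate 2, Fgf5 was not DE (adjusted p = 0.0133).

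Formative and Wnt genes moved in both directions. Of the 7 formative markers of the study that were tested, Fgf5 and Pou3f1 (11.5 ± 3.12 against 20.6 ± 0.59 CPM, 0.84) rose and Zic2 of chromosome 14 fell (-0.97). The Pou3f1 call was lost without dPOLE4 replicate 2 or dPOLE4 MCM2-2A replicate 3 (adjusted p = 0.011 and 0.0108). This list was taken from the study, and how it was chosen was not stated in the sources used here, so it is not treated as independent evidence of a direction. Of 14 further formative genes, 4 rose and 2 fell, with the de novo methyltransferase Dnmt3a at 192 ± 13.1 and 370 ± 22.2 CPM (0.95) and Sox3 rising by 1.29. Of 22 Wnt genes, 4 rose and 4 fell, and 3 of the latter, Notum (-1.13), Tcf7 (-0.64) and Znrf3 (-0.72), lie on chromosome 11. Cdx1, counted in this list too, is described above, Wnt4 rose by 1.48 and Wnt7b, on chromosome 15, by 0.95. Myc, on chromosome 15, rose by 0.95 (74.9 ± 5.63 against 144 ± 24.3 CPM) while Mycn fell by 0.69 (213 ± 20.9 against 131 ± 4.46 CPM).

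Some genes of extraembryonic and epithelial cells rose from low levels. Of 17 primitive endoderm genes, 6 rose and Lama1, a laminin chain, fell (median 0.65). Gata4 and Sox7, both on chromosome 14, rose by 2.68 (0.922 ± 0.507 against 6.02 ± 0.558 CPM) and 2.09, and Foxq1 by 1.43. The summed level of 8 primitive endoderm markers was 26.1 to 28.4 CPM in dPOLE4 and 56.9 to 72.2 CPM in dPOLE4 MCM2-2A, with Foxa2 below the filter. Whether cells of that type differed in number was not tested, and in bulk RNA more such cells and more RNA per cell cannot be told apart. Of 14 trophectoderm genes 4 rose, Krt7 and Plet1 the most, and Gata3 fell (25.2 ± 1.62 against 7.94 ± 1.89 CPM, -1.65). Plet1, a surface marker of trophoblast, rose by 2.19 (4.54 ± 0.237 against 20.5 ± 3.55 CPM), while the summed level of 6 trophectoderm markers was 41.1 to 47.3 CPM and 37.8 to 43 CPM.

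All 19 keratins tested lie on chromosomes 11 and 15, where 9 rose and 1 fell (median 0.97). The shares of all features are not the background of these 2 chromosomes. On chromosome 11, 45 of 1384 genes were DE higher and 464 lower, and on chromosome 15, 188 of 663 were higher and 8 lower. Krt7 was at 4.66, 4.71 and 3.6 CPM in dPOLE4 and at 21.4, 29 and 24.1 CPM in dPOLE4 MCM2-2A (log2 fold change 2.53), and Krt79 rose by 2.5 and Krt15 by 2.2. Krt4 rose by 3.43 (SE 0.587), but from very few reads, at 0.191, 0.0481 and 0.107 CPM in dPOLE4 and 1.96, 0.936 and 0.762 CPM in dPOLE4 MCM2-2A. Of 33 collagens 10 rose and 3 fell (median 0.69). Col6a3 fell by 2.09 (3.77 ± 0.727 against 0.9 ± 0.323 CPM) and Col5a2 by 1.03, while Col15a1, Col16a1 and Col9a3 rose by 1.49, 1.47 and 1.42. The Col5a2 call was lost without replicate 1 or 3 of either group (adjusted p of up to 0.0379) and the Col15a1 call with DESeq2 (adjusted p = 0.0117) and without dPOLE4 replicate 1 or 3 or dPOLE4 MCM2-2A replicate 2 or 3 (adjusted p of up to 0.0267). Of 7 fibroblast genes Thy1 and Fbn1 rose and Col5a2 fell. With the replicate block, 14 collagens rose and 5 fell, and 2 fibroblast genes rose and 3 fell, the additional ones being Col1a1 (-1.06) and Col1a2 (-1.22). The summed level of 6 fibroblast or feeder markers was 20.8 to 54.1 CPM in dPOLE4 and 36.5 to 48.3 CPM in dPOLE4 MCM2-2A, so that these ranges overlapped, and Col3a1, Lum and Postn did not pass the filter.

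**Figure D3:**
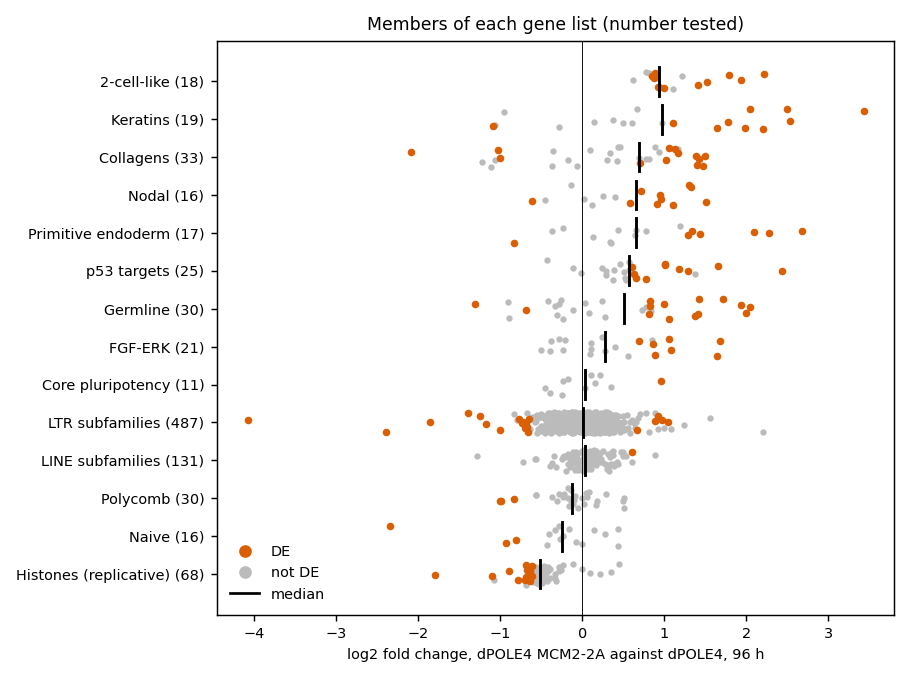
Log2 fold change of each tested member of 14 gene or repeat lists (x axis), dPOLE4 MCM2-2A against dPOLE4 at 96 h, with the number tested in parentheses. Orange dots are DE, grey dots are not, and the black bar is the list median, from 0.97 for keratins and 0.93 for 2-cell-like features to -0.52 for replication-dependent histones. The median of all features was 0.0035. All tested keratins lie on chromosomes 11 and 15, whose medians were -0.51 and 0.46.

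Of 8 neural genes Pax6 alone was DE, at 10, 13.9 and 9.46 CPM in dPOLE4 and 3.53, 2.93 and 1.86 CPM in dPOLE4 MCM2-2A (-1.97), and with the replicate block 1 neural gene, Nefl (0.66), also rose. Of 10 mesoderm genes Eomes (5.95 ± 0.822 against 11.1 ± 0.536 CPM, 0.92) and Mesp2 (1.25) rose, and Hand1 (0.74) missed the threshold in edgeR (adjusted p = 0.0277) but passed it with the replicate block (adjusted p = 0.000909) and in DESeq2 (adjusted p = 0.00351). Of 32 glycolysis and hypoxia genes 6 rose and none fell (median 0.19), with Ldha, the lactate dehydrogenase, at 473 ± 47 and 801 ± 70.9 CPM (0.77). Of 29 imprinted genes 4 rose and 4 fell, while 9.7% of all features rose and 6.67% fell. Igf2, the growth factor expressed from the paternal allele, rose from 12.1, 8.46 and 6.5 CPM to 32.9, 44.8 and 42.5 CPM (2.17, SE 0.194, adjusted p = 1.43e-05).

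Of 30 Polycomb genes 3 fell and none rose (median -0.13), while 6.67% of all features fell. Outside chromosomes 11, 14 and 15, 1 of 20 fell, near the 4.69% of all genes there. Suz12, a core subunit of PRC2, and Pcgf2, a subunit of PRC1, are both on chromosome 11 and fell by 0.99 (470 ± 54.7 against 235 ± 31.9 CPM) and 0.84. Phf19, an accessory subunit of PRC2 on chromosome 2, was at 48.2, 53.7 and 54.8 CPM in dPOLE4 and at 25.6, 29.3 and 22.8 CPM in dPOLE4 MCM2-2A (log2 fold change -1.0, adjusted p = 2.96e-05). Of 24 histone chaperone genes the 3 that were DE were Supt16, a subunit of FACT (1.05), and Ipo4 (0.99) on chromosome 14, and Npm1 (-0.62) on chromosome 11. Of 22 genes of H3K9 silencing, Mphosph8 of chromosome 14 rose by 0.96 and Cbx1 of chromosome 11 fell by 0.80. Of 14 genes of DNA methylation 1 rose and 2 fell, all 3 named above, and with the replicate block 2 rose and 2 fell, Dnmt3c (1.26) being the additional one. None of 25 mitochondrial genes was DE (median 0.24), while mt-Nd3 (0.72) was called with the replicate block. Of 22 clustered protocadherins 1 was DE (Pcdhgc3, 0.64). Of the X-linked Rhox genes 2 of 7 fell, and of 3 Pramel genes Pramel6 (-1.46) and Pramel7 (-0.74) fell. The Pramel7 call was lost without dPOLE4 replicate 1 or 2 or dPOLE4 MCM2-2A replicate 2 or 3 (adjusted p of up to 0.0289), and that of Pcdhgc3 without dPOLE4 replicate 2 or 3 or dPOLE4 MCM2-2A replicate 2 (adjusted p of up to 0.0144). Pramel1 (0.74) and Hoxc13 (0.81) were not DE (adjusted p = 0.0224 and 0.0189) but passed the threshold with the replicate block (adjusted p = 0.00223 and 0.00165). Col1a1, Col1a2, Nefl, Dnmt3c and mt-Nd3 were named after their values were seen.

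Of 844 repeat subfamilies tested, 23 were DE (2.73%), 7 of them higher (0.829%) and 16 lower (1.9%), and all 16 lower ones were LTR elements. ETnERV3-int went from 206, 117 and 126 CPM to 55.8, 34.2 and 32.1 CPM (log2 fold change -1.86, SE 0.24, adjusted p = 0.000134). IAPEy-int fell by 2.39 (10.6 ± 1.58 against 2.03 ± 0.49 CPM) and MLT1J1-int by 4.08 (3.14 ± 0.353 against 0.176 ± 0.0543 CPM). L1Md_A, a young LINE-1 subfamily, was the single DE LINE subfamily of 131, at 2458, 2472 and 2072 CPM against 3953, 3319 and 3285 CPM (0.60, adjusted p = 0.000486). That value was 0.50 without dPOLE4 MCM2-2A replicate 1 and 0.51 without dPOLE4 replicate 3, both below the fold change threshold. GSAT_MM, the major satellite, rose from 10.9, 10.7 and 7.63 CPM to 16.9, 34.9 and 32.4 CPM (1.53), RMER12B by 1.05 and ERVB5_1-I_MM-int by 0.97, the last of which was not DE with DESeq2 (adjusted p = 0.037) or without any single library (adjusted p of 0.0172 to 0.0395). No SINE subfamily of 35 was DE, and the LTR median over 487 subfamilies was 0.01. Of the LTR subfamilies 5 rose and 16 fell, or 10 and 19 with the replicate block.

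Whether POLE4 depletion altered the MCM2-2A effect was asked by testing the difference between the dPOLE4 and the Ctrl contrast. The Ctrl contrast called 2767 of 17623 features DE (15.7%), 1626 higher (9.23%) and 1141 lower (6.47%). No feature of 18555 differed between the contrasts (0%; edgeR, lowest adjusted p = 0.532), 686 had an unadjusted p under 0.05 (3.7%), and the median standard error of the difference was 0.217 on the log2 scale. DESeq2 and the replicate block called 1 feature each, MMERGLN-int, a retroviral internal sequence named after its value was seen. It was at 133, 152 and 139 CPM in Ctrl and 327, 403 and 347 CPM in Ctrl MCM2-2A (1.36), but at 151, 212 and 153 CPM and 223, 242 and 210 CPM under dTAG (0.39). The difference was -0.96 (SE 0.164), with an adjusted p of 0.532 in edgeR, 0.000446 in DESeq2 and 8.37e-05 with the block.

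Of the 1930 genes DE under dTAG outside chromosomes 11, 14 and 15, 1875 were tested in Ctrl, 1869 of them had the same sign and 1270 were DE in the same direction. These 1270 were 65.8% of the dTAG list and 71.1% of the 1787 genes called in Ctrl. The contrasts share no library but do share both lines. With dTAG given first, the log2 fold changes were 3.13 and 3.17 for Mmp9, -2.35 and -2.50 for Dppa3, -4.66 and -4.70 for Uty and 1.51 and 1.57 for Lefty2. They lay further apart for Cdx1 (2.86 and 1.96), Trf (2.42 and 1.75), Acvrl1 (3.70 and 2.83), Taf7l (2.05 and 1.17) and Col6a3 (-2.09 and -0.98), and none of these differences passed the test (adjusted p of 1 in edgeR). The median of the p53 targets was 0.57 and 0.61, that of the histones -0.52 and -0.33.

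Among the lists, the median difference was widest for 2-cell-like features (0.67), with medians of 0.93 under dTAG and 0.28 in Ctrl and 11 and 4 features called. At 24 h of dTAG the list had a median of 1.29 with 4 called, and MERVL-int a log2 fold change of 0.096. MERVL-int was at 846, 779 and 810 CPM in Ctrl and at 1067, 880 and 846 CPM in Ctrl MCM2-2A (0.21, adjusted p = 0.092), so that these groups touched. The difference of its effect was 0.68 (SE 0.169, unadjusted p = 0.00102), with an adjusted p of 1 in edgeR and 0.0344 with the block, above the threshold in both. For MT2_Mm the difference was 0.68 (adjusted p of 1, and 0.106 with the block).

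**Figure D4:**
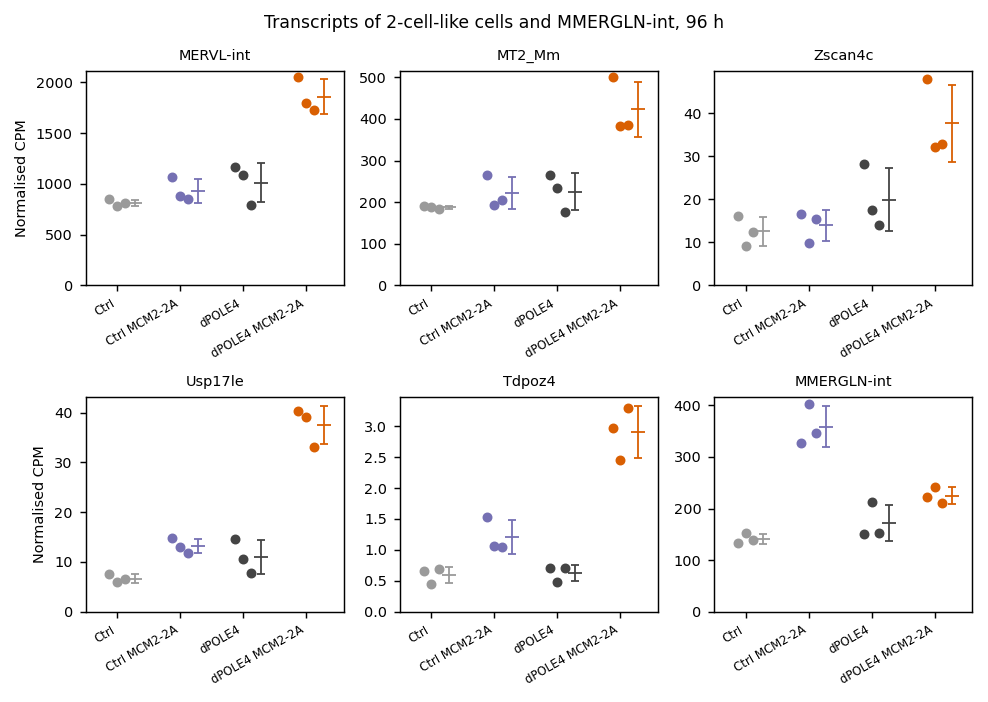
Normalised CPM (y axis, from 0) of 5 features of 2-cell-like cells and of MMERGLN-int in the 4 groups of 96 h. Dots are libraries, and the bar beside them is the mean ± SD (n = 3). For MERVL-int the 3 dPOLE4 MCM2-2A libraries, at 1733 to 2053 CPM, lay above all 9 others, and for MMERGLN-int the Ctrl MCM2-2A libraries were the highest.

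Against 24 h of dTAG, where 3428 of 18459 features were DE (18.6%; 10.3% higher and 8.27% lower), 1115 of the 1930 genes were called in the same direction and 17 in the opposite one. The shared genes were 57.8% of the 96 h list and 47.8% of the 2331 genes called at 24 h outside the 3 chromosomes. The 2 times belong to separate experiments, so that time and experiment cannot be told apart. The difference between times, a test added after the data were seen, called 296 of 18803 features (1.57%). Of these, 240 had a higher signed log2 fold change at 96 h (1.28%) and 56 a lower one (0.298%). A higher signed value can also be a negative effect that shrank. Leaving out single libraries gave 169 to 377 calls, and DESeq2 gave 491 and the block 585.

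T and Sp5, whose MCM2-2A effect was negative at 24 h and nearer 0 at 96 h, were high in dPOLE4 at 24 h. The log2 fold change was -4.53 at 24 h and -0.92 at 96 h for T. For Sp5 it was -4.69 and -0.49, and neither gene was DE at 96 h. T (brachyury), the mesoderm factor, was at 37.5, 21.6 and 29.7 CPM in dPOLE4 at 24 h, against 1.07, 1.11 and 1.44 CPM in dPOLE4 MCM2-2A. At 96 h it was at 2.93, 2.16 and 2.2 CPM and 0.757, 1.23 and 1.95 CPM. The Wnt target Sp5 went the same way, from 18.2, 13 and 13 CPM at 24 h to 1.53, 1.54 and 3.22 CPM at 96 h in dPOLE4. Perp was at 52.4, 40.9 and 41.9 CPM in dPOLE4 and at 45.7, 45.9 and 54 CPM in dPOLE4 MCM2-2A at 24 h, so that the groups overlapped there and not at 96 h. The MCM2-2A effect on Dusp6 was 0.10 at 24 h and 1.08 at 96 h, and that on Phf19 was 0.28 and -1.0.

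**Figure D5:**
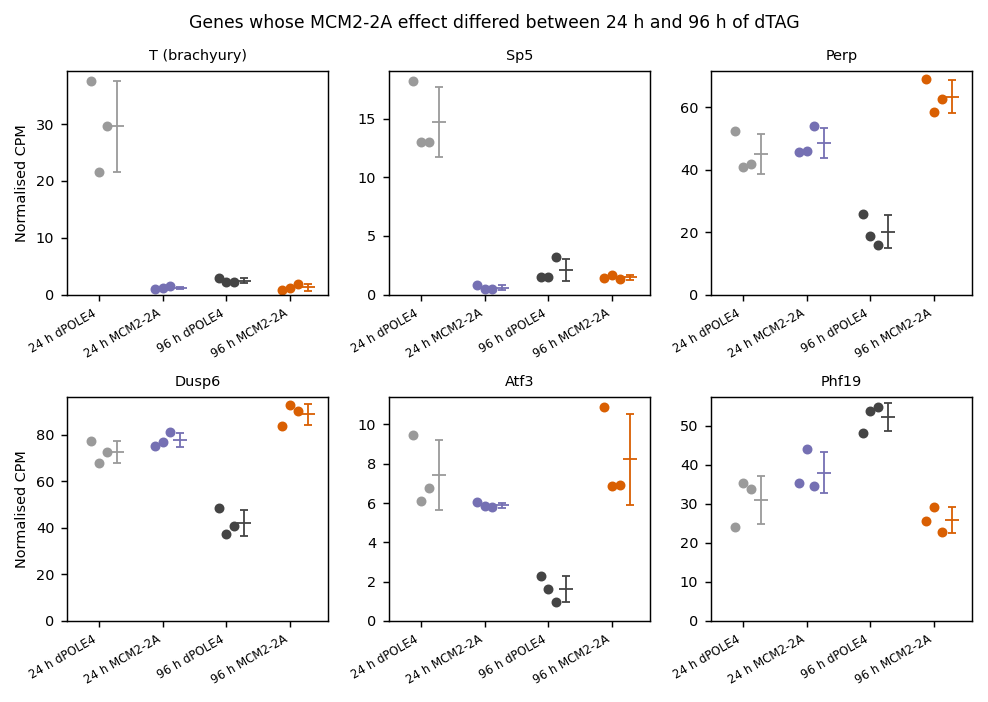
Normalised CPM (y axis, from 0) of 6 genes whose MCM2-2A effect differed between 24 h and 96 h of dTAG, in dPOLE4 and dPOLE4 MCM2-2A libraries of both times. Dots are libraries, and the bar beside them is the mean ± SD (n = 3). T and Sp5 were high only in the dPOLE4 libraries of 24 h, at 21.6 to 37.5 and 13 to 18.2 CPM, and the 24 h and 96 h libraries were normalised apart.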

How the data were processed

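RNA was depleted of ribosomal RNA and sequenced as strand-specific, paired 100-base reads. Per the labels and the study's methods, the authors trimmed reads with cutadapt 4.2, aligned them to mm10 (GRCm38) with STAR and counted genes (GENCODE M25) and repeat subfamilies with TEcount, which shares out reads with several alignments. The deposited values are raw counts, neither normalised nor pooled, in 3 biological replicates per group. Positions and symbols came from GENCODE M21, of the same build.

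In R 4.3.3, each contrast was filtered (filterByExpr, minimum count 10, minimum total 15), scaled by TMM and tested with edgeR 4.0.16 (quasi-likelihood, Benjamini-Hochberg over all features), with DESeq2 1.42.0 as an alternative. The study's methods name DESeq2. The displayed CPM use TMM over the 12 libraries of 96 h, or the 6 of 24 h. The procedure was tested on simulated data. Alternatives were other scaling factors, other filters on low counts, robust dispersions, 1 fit of all 4 groups of 96 h, other thresholds, the replicate block and leaving out each library in turn.

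Replicate numbers are shared between groups. Deviations from the group means correlated at 0.314, 0.267 and 0.128 between libraries of the same number, so the numbers were taken to pair the samples. The main tests nevertheless left this pairing out. The replicate block, which adds the replicate number to the fit, was run as an alternative. At 96 h it called 3361 features DE, against 2863 without it. No 2 libraries agreed within sampling noise.

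Members, gene lists and tests were chosen with earlier results of these data known. Named were Pole4, Mcm2 and, among DE genes with non-overlapping groups, at least 5 CPM and a standard symbol, the 10 largest changes per direction outside chromosomes 11, 14 and 15, the 3 on each of these, 3 repeats per direction, and per list up to 4 DE members (or, to make 3, the most abundant). Genes of the 24 h comparison were named by size of difference after their values were seen, as were list members mentioned beyond this rule. A few genes that the rule would name are not reported here. Columns of RA time points were not used here.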

Additional observations from a re-analysis of the deposited data

Results flagged for a closer look

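Some effects of MCM2-2A under dTAG differed between 96 h and 24 h by the interaction test of edgeR (adjusted p under 0.01), which set these genes apart from the rest. Differences are log2 values, 96 h minus 24 h. Among genes named in the 96 h comparison, the signed log2 fold change was higher at 96 h for Atf3 (2.67), Fgf5 (1.98), Sept4 (1.95), Wnt4 (1.90), Perp (1.52), Hand1 (1.49), Clu (1.43), Cavin1 (1.17), Krt7 (1.04) and Dusp6 (0.95), and lower for Phf19 (-1.31). Hand1 went from -0.77 at 24 h (DE) to 0.74 at 96 h (not DE), so its sign turned and its size did not grow.

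Among called genes with a standard symbol and at least 5 CPM in some group, large differences were in Sp5 (4.17), Apln (4.06), Slc39a8 (3.62), T (3.59) and Piezo2 (3.53), and in the other direction in Pdlim4 (-1.76), Rab3il1 (-1.63), Lrrc15 (-1.55) and Gal3st3 (-1.52). For the first 5, dPOLE4 MCM2-2A was lower than dPOLE4 at 24 h, by 4.69, 4.2, 4.25, 4.53 and 2.99 in size on the log2 scale, and none of them was DE at 96 h. Apln did not pass the filter at 96 h. The 2 times are separate experiments, and what sets them apart was not tested. Groups of 3 libraries were not searched for outlying samples.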

How the results depend on the processing

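Requiring the change itself to exceed 1.5-fold (glmTreat) left 808 features DE at 96 h and 528 genes outside chromosomes 11, 14 and 15. Every other alternative kept these counts within 1.5 times, and leaving out 1 library gave 2239 to 2816 and 1429 to 1892, with 2155 to 2776 for Ctrl and 2764 to 3393 for 24 h. With the replicate block 3361 features were DE at 96 h. For the difference between dPOLE4 and Ctrl, DESeq2 and the block gave 1 call each, no filter on low counts gave 30, and leaving out 1 library gave 0 each time. For the difference between 96 h and 24 h, DESeq2 gave 491, the block 585, and leaving out 1 library 169 to 377, with the lowest counts without dPOLE4 replicate 2 (173) or 3 (181) or dPOLE4 MCM2-2A replicate 3 (189) of 96 h, or without dPOLE4 replicate 1 (193) or dPOLE4 MCM2-2A replicate 2 (169) of 24 h. With at least 10 counts in every library, which tests fewer genes, the median was 0.75 for germline genes, 0.24 for FGF-ERK, 0.60 for keratins and -3.51 for chromosome Y. Leaving out 1 library moved the median to between -0.17 and -0.075 for Polycomb, 0.19 and 0.40 for FGF-ERK, 0.49 and 0.95 for primitive endoderm, 0.71 and 1.37 for keratins, 0.49 and 0.71 for collagens, 0.15 and 0.19 for chromosome 1, and -3.94 and -3.66 for chromosome Y; the cause was not tested. Of 158 named features with a fitted value, 137 kept their call under every alternative, 14 lost it and 7 gained it under at least 1, and none reversed. The block changed the call of Duxf3, Hand1, Hoxc13, Pramel1 and Pdlim4, and of no other of these 158. It also called Col1a1, Col1a2, Nefl, Dnmt3c and mt-Nd3, which are not counted among them. Each line is a single clone and each group has 3 libraries, so the tests measure the spread between cultures of these lines.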
